A study of Homo sapiens with 9 samples.

Results

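The aryl hydrocarbon receptor AHR, its partner ARNT, its repressor AHRR and the genes CYP1A1, CYP1A2, CYP1B1 and TIPARP, which the receptor is known to switch on, were followed in a lung cancer cell line before and after it received reprogramming factors. Of the study's 21743 named genes, these 7 were selected on the array levels of CYP1A1, CYP1B1 and TIPARP, which in OSK-A549-Colony cells, 1 of the 2 kinds of transduced cell, exceeded those in the other kind, OSK-A549-SN. All array probes that carry a RefSeq transcript of 1 of these genes were used, which gave 9 of the 50599 probes on the array. AHR, CYP1B1 and TIPARP had 2 probes each, and ARNT, CYP1A1 and CYP1A2 had 1 each. No probe was matched to AHRR, which is not analysed here.

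The parental cells were A549, an established line from a human lung adenocarcinoma, at passages 98 to 99. For the other 2 groups, A549 cells had been infected with retroviruses that carried OCT3/4, SOX2 and KLF4 (together OSK), and dome-shaped colonies were passaged by brief trypsin treatment. OSK-A549-Colony cells, labeled as lung cancer stem-like, were those that stayed on the dish, and OSK-A549-SN cells, labeled as differentiated, were spindle cells that grew out around them and detached sooner. Both were taken at later passages than the parental cells. Each group had 3 arrays, 1 RNA sample each, from 3 separate transduction experiments. Cells infected with a virus without the factors were not analysed here, so transduction, the factors and the passage cannot be told apart in a comparison with parental A549.

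AHR is a transcription factor of the bHLH-PAS family that waits in the cytoplasm in a chaperone complex. When a ligand such as dioxin, a polycyclic hydrocarbon or a product of tryptophan breakdown binds to it, it enters the nucleus, pairs with ARNT and binds short DNA elements whose core is GCGTG. CYP1A1, CYP1A2 and CYP1B1 encode cytochrome P450 enzymes that oxidize many of these ligands, while AHRR and TIPARP, an ADP-ribosyltransferase, act back on the receptor and dampen it. In the lung the receptor is best known for the induction of CYP1A1 and CYP1B1 by tobacco smoke.

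The DNA just upstream of 3 of the genes is shown with this core marked. CYP1A1 and TIPARP hold it within 250 bases of the start shown, and CYP1A2 does not. Whether the core bears on their RNA levels was not tested. The sequences are from RefSeq (GRCh38.p14), run 5′ to 3′ on the strand of the gene and end at the base before the start site. Capitals mark GCGTG or, for a core on the opposite strand, CACGC.
CYP1A1, chr15:74725529-74725778, minus strand: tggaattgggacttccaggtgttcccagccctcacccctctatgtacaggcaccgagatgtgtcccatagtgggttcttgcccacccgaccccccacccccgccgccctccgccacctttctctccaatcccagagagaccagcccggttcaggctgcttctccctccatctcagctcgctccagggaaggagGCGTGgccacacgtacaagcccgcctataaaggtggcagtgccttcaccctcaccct
TIPARP, chr3:156674340-156674589, plus strand: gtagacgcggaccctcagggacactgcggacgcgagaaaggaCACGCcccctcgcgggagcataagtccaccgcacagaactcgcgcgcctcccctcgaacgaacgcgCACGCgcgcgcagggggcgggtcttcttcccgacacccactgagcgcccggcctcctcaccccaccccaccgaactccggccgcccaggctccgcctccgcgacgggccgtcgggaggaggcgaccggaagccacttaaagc
CYP1A2, chr15:74748595-74748844, plus strand: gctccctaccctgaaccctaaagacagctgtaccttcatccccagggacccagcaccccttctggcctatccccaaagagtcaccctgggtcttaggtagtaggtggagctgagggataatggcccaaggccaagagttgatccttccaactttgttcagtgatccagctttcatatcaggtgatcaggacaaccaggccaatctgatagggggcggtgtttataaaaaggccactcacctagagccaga
In CYP1A1 the single core ended 52 bases before the start. TIPARP had 2 cores, 203 and 137 bases before the start, in this window, and 0 in the windows of its other 2 annotated starts. The windows of AHR and ARNT held 0, and those of the 2 AHRR starts held 1 and 2. CYP1B1 had no entry in the table used. On either strand the 5 letters were found in 11313 of 35116 windows of the same 250 bases, or 32.2%, so that a match by itself is common. A longer form, TNGCGTG (N, any base), was found in 4.52% of these windows. It was in 0 of the windows of CYP1A1, TIPARP and CYP1A2, and in 1 of those of AHRR. A match is a description of these letters and not a binding site, and its absence says only that they are not in this window. The better-known elements of CYP1A1 lie further upstream than these windows reach.

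Expression was measured with 1-color Agilent 60K arrays. Levels are given as log2 intensity relative to the 75th percentile of the same array, so that 0 is the level of that percentile and a difference of 1 is 2-fold. Between 25809 and 29317 probes were detected per array, and arrays of a group correlated at r = 0.983 or higher over the probes detected on all 9 arrays. The OSK-A549-Colony arrays were the most alike, with a median SD per probe of 0.09 against 0.21 in parental A549 and 0.16 in OSK-A549-SN. OSK-A549-SN replicate 3 was the only array on the second of 2 slides. All 6 epithelial markers, EPCAM and keratins among them, were well above background in each group, with 0 called against parental A549 in either, although CDH1 differed by -1.0 in OSK-A549-Colony (limma, adjusted p = 0.0319) and KRT19 by 1.18 (limma, adjusted p = 0.0625), and 6 of 8 markers of fibroblasts and mesenchymal stem cells, including COL1A2, COL3A1, PDGFRB and DCN, were so on no array. Of the remaining 2, COL1A1 was so on 1 array of each group and ACTA2, smooth muscle actin, on all arrays, ACTA2 differing from parental A549 by -1.30 in OSK-A549-Colony without overlap (limma, adjusted p = 0.124) and by -0.49 in OSK-A549-SN (limma, adjusted p = 0.544). The summed level of the 8 mesenchymal markers, in multiples of the 75th percentile, was 155 to 214 in parental A549, 223 to 239 in OSK-A549-Colony and 232 to 254 in OSK-A549-SN, a sum carried mostly by VIM, while FN1 differed by -0.31 and -1.33 in the 2 transduced groups (limma, adjusted p = 0.513 and 0.0701), and ZEB2 was not well above background in any group. Of these markers 7 were tested and 0 called against parental A549 in either transduced group, and the part of these levels in the results that follow was not tested.

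Of the 9 probes, 8 were detected on at least 1 array, and 7 of them on all 9. The probe left out, A_33_P3305620, stands for another TIPARP transcript and had an intensity of 2.29 to 5.79, not well above background on any array.

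OSK-A549-Colony cells had more CYP1B1, CYP1A1 and TIPARP RNA than parental A549 cells, whereas AHR, ARNT and CYP1A2 passed the test in neither comparison with parental A549. A probe was called where its adjusted p in limma, over all probes tested, was under 0.05 and its change over 2-fold. When OSK-A549-Colony was compared with parental A549, 4 of the 8 probes tested, from 3 genes, were called, all of them higher. Over all 30869 probes tested, 3.7% were called in either direction and 1.71% were called higher. The median log2 difference of the 8 probes was 0.93, against -0.03 over all probes. The OSK-A549-Colony arrays are also those on which CYP1A1, CYP1B1 and TIPARP were picked. Their p-values, the count of calls and the median in this comparison are therefore not independent of that choice. The AHR probes differed by 0.31 and 0.15, ARNT by -0.26 and CYP1A2 by -0.30. In RNA from whole cultures, fewer cells that express a gene and less RNA per cell cannot be told apart.

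**Figure D1:**
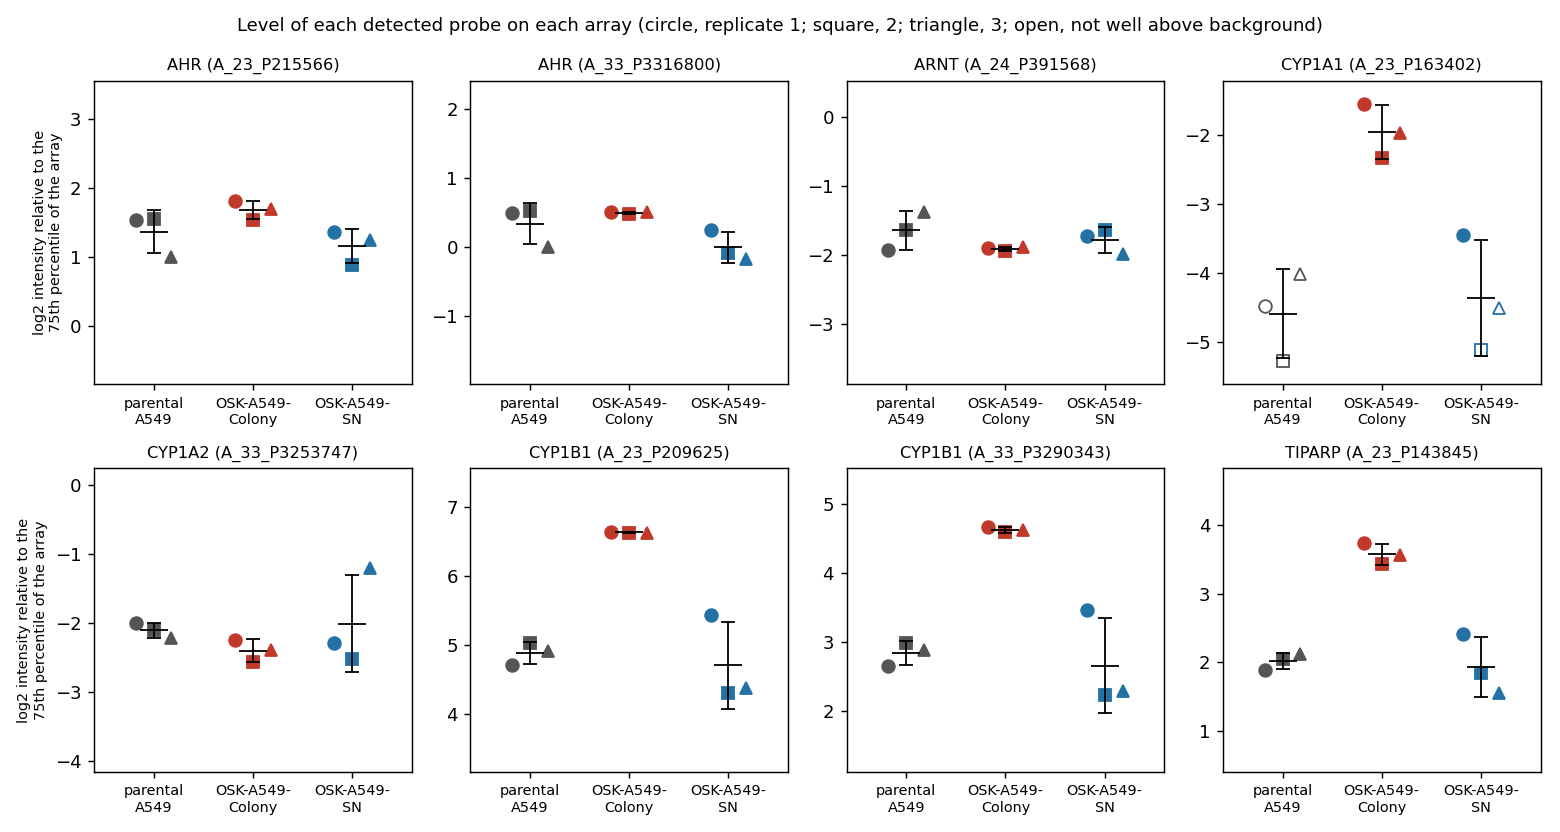
Level of the 8 detected probes on each of the 9 arrays, as log2 intensity relative to the 75th percentile of the array; each panel spans the same or nearly the same number of log2 units around its own values. Symbols give the replicate, open symbols mark arrays on which the probe was not well above background, and bars show the mean ± SD (n = 3). The 3 OSK-A549-Colony arrays lie above all other arrays for CYP1A1, CYP1B1 and TIPARP, and among or close to the others for AHR, ARNT and CYP1A2.

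CYP1A1 is the classical readout of the receptor, since it is nearly silent without a ligand. Its probe, A_23_P163402, read -4.48, -5.28 and -4.01 on the parental arrays, -1.55, -2.34 and -1.97 on the OSK-A549-Colony arrays, and -3.45, -5.11 and -4.51 on the OSK-A549-SN arrays (log2 levels). In intensity this was 6.50 to 13.5 in parental A549, 46.4 to 85.6 in OSK-A549-Colony and 6.29 to 21.1 in OSK-A549-SN. The signal was well above background on each of the 3 arrays of OSK-A549-Colony, on 1 of OSK-A549-SN, replicate 1, and on 0 of parental A549. Even the lowest OSK-A549-Colony array lay 1.68 log2 units above the highest parental one. With each dim parental array set to at least the lowest signal that counted as well above background on it, CYP1A1 in OSK-A549-Colony was at least 4.74-fold higher than the parental level (limma, adjusted p = 0.0250; fitted log2 difference 2.64, SE 0.37). In OSK-A549-SN the arrays overlapped those of parental A549, and with only 1 of these 6 arrays well above background no fold is given (limma, adjusted p = 0.810). The call in OSK-A549-Colony was lost when any of its arrays was left out, with adjusted p in limma of 0.0764, 0.102 and 0.0956 without replicate 1, 2 and 3, or when parental replicate 2 was left out (0.0670). Over the arrays left out the bound was 4.13- to 5.42-fold. The fitted difference was 2.29 to 2.93, but it rests on parental levels at background. With another background correction (normexp with an added offset) the fitted difference was 0.82, under 2-fold.

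CYP1B1, the P450 of this family known mainly from tissues outside the liver, was read by a pair of probes that moved together. Its probe A_23_P209625 read 4.70, 5.02 and 4.91 in parental A549, 6.64, 6.62 and 6.62 in OSK-A549-Colony, and 5.43, 4.30 and 4.37 in OSK-A549-SN. The other probe, A_33_P3290343, read 2.65, 2.99 and 2.88, then 4.67, 4.59 and 4.62, then 3.46, 2.23 and 2.28. On both probes the OSK-A549-Colony arrays were nearly identical and lay about as far above parental A549, with a gap of 1.60 log2 units to the highest parental array. OSK-A549-Colony exceeded parental A549 3.36-fold on the first probe (log2 difference 1.75, SE 0.12, 95% confidence interval 1.46 to 2.04; limma, adjusted p = 0.0126) and 3.44-fold on the second (1.78, SE 0.12; limma, adjusted p = 0.0133). The OSK-A549-SN arrays spread to both sides of parental A549, replicate 1 above and replicates 2 and 3 below all parental arrays, and their mean differed by -0.18 on each probe (SE 0.33 and 0.36; limma, adjusted p = 0.770 and 0.780). The difference between the 2 probes on an array was 1.97 to 2.09 over the 9 arrays (SD 0.04), so the spread among OSK-A549-SN arrays was shared by both. Without OSK-A549-Colony replicate 2 or parental replicate 2 both probes missed the threshold (limma, adjusted p = 0.0932 and 0.0503), with a log2 difference no lower than 1.66 on the first probe in any such fit.

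TIPARP, which adds ADP-ribose to the receptor and promotes its decay, moved in nearly the same way. Its level by probe A_23_P143845 was 1.90, 2.06 and 2.12 in parental A549, 3.73, 3.42 and 3.57 in OSK-A549-Colony, and 2.41, 1.84 and 1.56 in OSK-A549-SN. OSK-A549-Colony lay 2.92-fold above parental A549 with no overlap (log2 difference 1.55, SE 0.13, 95% confidence interval 1.23 to 1.86; limma, adjusted p = 0.0148). As with CYP1B1, the OSK-A549-SN arrays fell on both sides of the parental ones, replicate 1 above them and replicates 2 and 3 below them, with a mean difference of -0.09 (SE 0.24; limma, adjusted p = 0.846). The call in OSK-A549-Colony was lost without its replicate 2 (limma, adjusted p = 0.0932), its replicate 3 (0.0617) or parental replicate 2 (0.0588), with the log2 difference between 1.47 and 1.62.

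CYP1A2, which lies next to CYP1A1 on chromosome 15 in the opposite orientation and works mainly in the liver, did not follow its neighbor. Probe A_33_P3253747 read -2.0, -2.10 and -2.21 in parental A549, -2.24, -2.57 and -2.39 in OSK-A549-Colony, and -2.29, -2.52 and -1.20 in OSK-A549-SN. All 3 OSK-A549-Colony arrays were below the parental ones, by 0.30 on average (SE 0.13; limma, adjusted p = 0.192), which did not pass. OSK-A549-SN replicate 3, the array on the other slide, was the highest of all 9, and the part of the slide in that value was not tested. The mean of OSK-A549-SN exceeded that of parental A549 by 0.10 (SE 0.36; limma, adjusted p = 0.886), and without replicate 3 it was 0.30 below it (limma, adjusted p = 0.345).

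The receptor itself was well above background on every array. AHR probe A_23_P215566 read 1.54, 1.55 and 1.01 in parental A549, 1.81, 1.54 and 1.70 in OSK-A549-Colony, and 1.37, 0.89 and 1.25 in OSK-A549-SN. Its other probe, A_33_P3316800, read 0.49, 0.52 and -0.01, then 0.50, 0.47 and 0.50, then 0.24, -0.10 and -0.17. Parental replicate 3 stood below the other 2 parental arrays on both probes, within the range of OSK-A549-SN. The other 2 parental arrays overlapped the OSK-A549-Colony range and lay above all OSK-A549-SN arrays. OSK-A549-Colony minus parental A549 was 0.31 (SE 0.19; limma, adjusted p = 0.311) and 0.15 (SE 0.17; limma, adjusted p = 0.564) on the 2 probes. OSK-A549-SN minus parental A549 was -0.20 (SE 0.22; limma, adjusted p = 0.622) and -0.35 (SE 0.21; limma, adjusted p = 0.391). The 95% confidence intervals, -0.14 to 0.77 and -0.27 to 0.57 for OSK-A549-Colony and -0.74 to 0.34 and -0.86 to 0.17 for OSK-A549-SN, stayed within 2-fold. Without parental replicate 3 the second probe gave -0.02 for OSK-A549-Colony.

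ARNT, the partner without which the receptor cannot bind DNA, read -1.92, -1.63 and -1.36 in parental A549, -1.89, -1.94 and -1.88 in OSK-A549-Colony, and -1.72, -1.63 and -1.98 in OSK-A549-SN. The 3 groups overlapped. OSK-A549-Colony minus parental A549 was -0.26 (SE 0.16; limma, adjusted p = 0.324) and OSK-A549-SN minus parental A549 was -0.14 (SE 0.19; limma, adjusted p = 0.701).

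**Figure D2:**
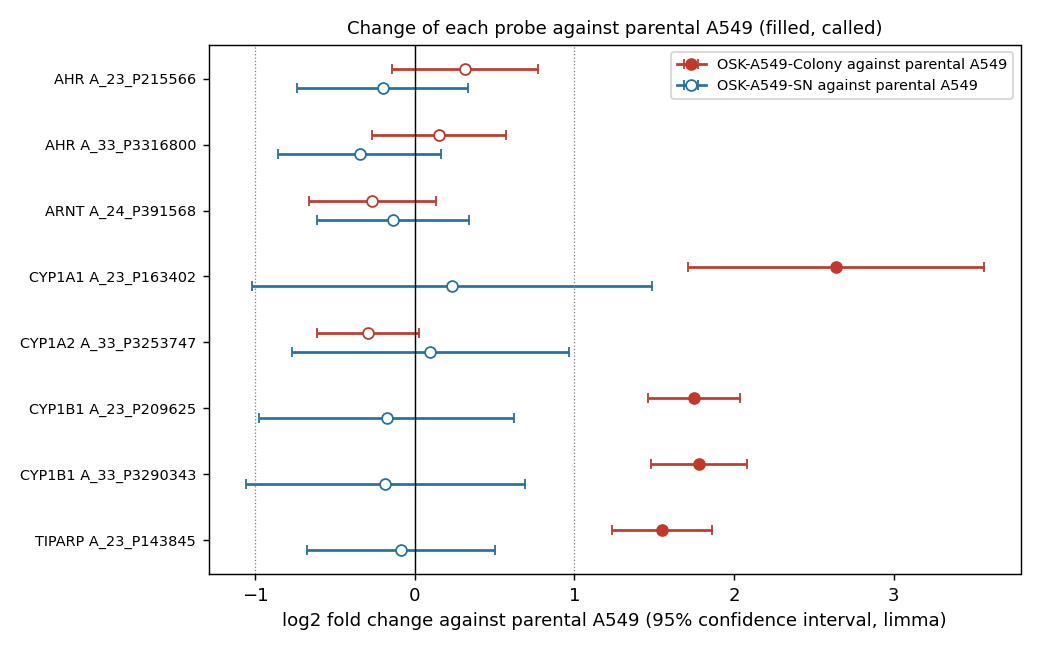
Log2 fold change of each detected probe against parental A549 (x axis; points, limma estimate; bars, 95% confidence interval; dotted lines, 2-fold) for OSK-A549-Colony (red) and OSK-A549-SN (blue), with 3 arrays per group and filled points for calls. The 4 red filled points are CYP1A1 at 2.64, CYP1B1 at 1.75 and 1.78 and TIPARP at 1.55, and the blue points lie between -0.35 and 0.23, the highest of them being CYP1A1, which was well above background on 1 of the 6 arrays compared there. For the red CYP1A1 point, 0 parental arrays were well above background, so 2.64 is not a measured size, and the bound was 2.25.

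In OSK-A549-SN against parental A549, 0 of the 8 probes were called, where 1.55% of all 32223 probes tested were. At an unadjusted p under 0.05 and a change over 2-fold the count among the 8 was also 0, against 5.83% of all probes. The median log2 difference was -0.16, against 0.08 over all probes. The OSK-A549-SN arrays were also part of the choice of CYP1A1, CYP1B1 and TIPARP, so these counts and this median are not independent of it. A gene that passed in OSK-A549-Colony and not in OSK-A549-SN is not thereby shown to differ between them, and the direct comparison follows as a description, because it is the one that picked the genes.

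When the transduced groups were set against each other, the CYP1A1 probe passed the background test on each OSK-A549-Colony array but on only 1 of the 3 OSK-A549-SN arrays, so no fold is given for it. In OSK-A549-Colony, CYP1B1 was 3.80- and 3.91-fold higher on its 2 probes, and TIPARP 3.11-fold. All 4 probes of these 3 genes were over 2-fold higher without overlap, as were 1.22% of the 31748 probes tested. The lowest OSK-A549-Colony array lay 1.12 log2 units above the highest OSK-A549-SN array for CYP1A1, 1.19 and 1.13 for CYP1B1 and 1.01 for TIPARP. Both AHR probes were also higher without overlap, but by smaller steps, 1.43- and 1.41-fold with gaps of 0.18 and 0.23. ARNT and CYP1A2 overlapped and differed by -0.13 and -0.39 on average, the latter turning to 0.0075 without OSK-A549-SN replicate 3. Over all probes, 0% were called by limma in this comparison, and 662, or 2.09%, were over 2-fold different at an unadjusted p under 0.05.

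The 3 OSK-A549-SN arrays were not alike in these genes. Replicate 1 was the highest of the 3 for CYP1A1, for both CYP1B1 probes, for TIPARP and for both AHR probes. It was the only array outside OSK-A549-Colony on which CYP1A1 was well above background. Against the mean of parental A549 it was higher by 0.55 and 0.62 for CYP1B1 and by 0.38 for TIPARP (log2 differences). Replicates 2 and 3 lay 0.57 and 0.50 below the parental mean on the first CYP1B1 probe. The same array was the highest of the 3 for 231 of the 384 other probes that were over 2-fold higher in OSK-A549-Colony without overlap, or 60.2%, against 16.1% for replicate 2 and 23.7% for replicate 3. How many of these respond to the receptor was not examined. The OSK-A549-Colony mean still exceeded this array by 1.5 for CYP1A1, 1.20 and 1.16 for CYP1B1 and 1.16 for TIPARP.

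**Figure D3:**
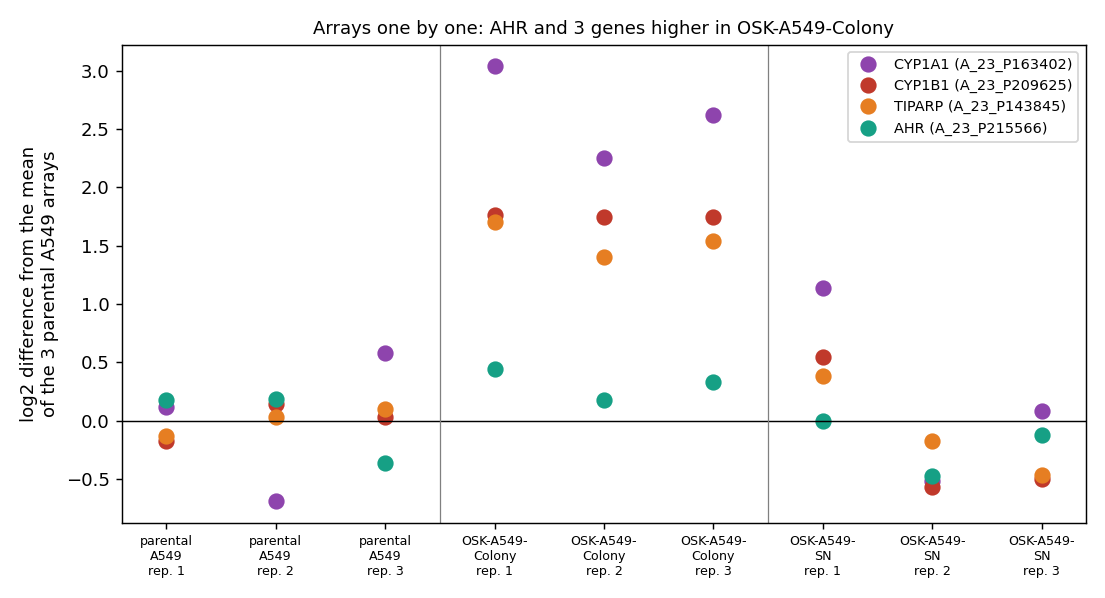
Log2 difference of each of the 9 arrays (x axis) from the mean of the 3 parental A549 arrays for CYP1A1, CYP1B1 (A_23_P209625), TIPARP and AHR (A_23_P215566). CYP1B1 and TIPARP run close together over all arrays, OSK-A549-SN replicate 1 lies above the other 2 OSK-A549-SN arrays for each gene, and AHR stays within 0.5 of the parental mean. CYP1A1 was not well above background on the parental arrays or on OSK-A549-SN replicates 2 and 3.

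The likeness of CYP1B1 and TIPARP can be given as a distance, the root mean square of the difference between their log2 profiles over the 9 arrays after each is centered on its own mean. It was 0.198, and among 13943 genes each was the nearest to the other. JUN, a subunit of the AP-1 transcription factor, came second for both (0.310 from CYP1B1 and 0.210 from TIPARP), followed by SNTB1, a cytoskeletal adaptor, for CYP1B1 (0.374) and by NEURL3 for TIPARP (0.256). Nearest to CYP1A1 among 15184 genes were VIPR1, a receptor for vasoactive intestinal peptide (0.493), CYP1B1 (0.535) and the globin gene HBB (0.608), with TIPARP in place 4 (0.623). CYP1A1 was well above background on 4 of the 9 arrays, so its distances rest in part on levels at background. AHR was further down each of these orders, in place 607 for CYP1B1, 796 for TIPARP and 1409 for CYP1A1. Profiles were centered but not scaled, so the distance reflects the size of differences as well as their shape. OSK-A549-Colony minus OSK-A549-SN was 0.51 for AHR (A_23_P215566), against 1.93 for CYP1B1 (A_23_P209625) and 1.64 for TIPARP. The genes nearest to AHR were N4BP2 (0.0743), PIK3R1 (0.0840) and DNAJC21 (0.0878). These distances are a description of 9 arrays in 3 groups, and genes picked for being higher in the same group are near each other in part through that choice.

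Other genes of the pathway were followed in 5 lists, with 1 probe per gene. Against parental A549, 3.9% of 16422 named genes were called in OSK-A549-Colony, 2.08% higher and 1.81% lower, and 1.63% of 16777 in OSK-A549-SN, and the medians were 0.03 and 0.09. Of the 14 genes of the receptor's chaperone complex and its coregulators, 0 were called in either comparison, with medians of 0.06 and 0.13. The smallest p there was that of PTGES3, the co-chaperone p23, at 0.56 in OSK-A549-Colony (SE 0.10; limma, adjusted p = 0.0337), a significant difference of under 2-fold, and 0.74 in OSK-A549-SN (SE 0.12; limma, adjusted p = 0.0530). Of the other bHLH-PAS factors, which compete for or resemble ARNT, 0 of 10 and 0 of 11 were called. BMAL2, a circadian clock partner, had the smallest p in OSK-A549-Colony (0.76, SE 0.23; limma, adjusted p = 0.0927) and EPAS1, or HIF-2α, in OSK-A549-SN (0.58, SE 0.13; limma, adjusted p = 0.0836).

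Among other genes reported to respond to the receptor, 4 of 18 tested were called higher in OSK-A549-Colony and 0 lower, while 10 of the 18 were lower in sign and the median was -0.05. MMP1, a collagenase, gave a signal well above background on 0 parental arrays and was at least 2.45-fold higher in OSK-A549-Colony (limma, adjusted p = 0.0462), a call that was lost with no detection filter (limma, adjusted p = 0.0759), with normexp (log2 difference 0.63; limma, adjusted p = 0.0763) and without any 1 of the 6 arrays. Without OSK-A549-Colony replicate 1 the bound for MMP1 was 1.57-fold. STC2, a secreted glycoprotein, rose from -2.35 ± 0.39 to -0.23 ± 0.34 (SD, n = 3), a log2 difference of 2.12 (SE 0.27; limma, adjusted p = 0.0221). EREG, a ligand of the EGF receptor, rose by 1.88 (SE 0.29; limma, adjusted p = 0.0286), and ALDH1A3, which makes retinoic acid, by 1.1 (SE 0.23; limma, adjusted p = 0.0446). The call of ALDH1A3 was also lost with no detection filter (limma, adjusted p = 0.0794) and without any 1 of the 6 arrays (limma, adjusted p = 0.0627 to 0.128), and those of STC2 and EREG without any 1 OSK-A549-Colony array or parental replicate 2 (limma, adjusted p = 0.0712 to 0.113). All 4 also respond to other signals. Another 3 genes differed significantly by under 2-fold: CDKN1B, a cell cycle inhibitor, at -0.70 (SE 0.10; limma, adjusted p = 0.0267), NEDD9, an adhesion scaffold, at -0.66 (SE 0.12; limma, adjusted p = 0.0346) and NQO1, a quinone reductase, at 0.55 (SE 0.12; limma, adjusted p = 0.0462). These 3 and ALDH1A3 were named after their values were seen. In OSK-A549-SN 0 of 19 were called and the median was 0.01, CDKN1B having the smallest p (-0.61, SE 0.13; limma, adjusted p = 0.0772). MMP1 was well above background on all 3 arrays there too (limma, adjusted p = 0.0839). Of the 19 genes, 1, STC2, was over 2-fold higher without overlap when OSK-A549-Colony was set against OSK-A549-SN, as were 1.26% of named genes.

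The enzymes that turn tryptophan into kynurenine, a source of ligands made by the cell, and the carriers that bring tryptophan in gave 1 call of 13 in each comparison, with medians of 0.04 and 0.38. Among genes that differed significantly by under 2-fold in OSK-A549-Colony, chosen after their values were seen, were both chains of the tryptophan carrier, SLC7A5 at 0.75 (SE 0.11; limma, adjusted p = 0.0272) and SLC3A2 at 0.87 (SE 0.12; limma, adjusted p = 0.0231), and the kynurenine aminotransferase KYAT1 at -0.80 (SE 0.17; limma, adjusted p = 0.0473). TDO2, which opens the tryptophan ring, rose from -3.74 ± 0.49 in parental A549 to -1.82 ± 0.31 in OSK-A549-Colony (SD, n = 3), or 3.76-fold (log2 difference 1.91, SE 0.29; limma, adjusted p = 0.0281). Only 2 of the 3 parental arrays were well above background for it, and with normexp the log2 difference was 0.71, under 2-fold. In OSK-A549-SN it was at -2.21 ± 0.35 (SD, n = 3), 1.53 above parental A549 (SE 0.30; limma, adjusted p = 0.0708), and 0.38 below OSK-A549-Colony. QPRT, a late enzyme on the way to NAD, fell by 1.35 in OSK-A549-SN (SE 0.20; limma, adjusted p = 0.0443) and differed by -0.84 in OSK-A549-Colony (limma, adjusted p = 0.0700).

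Of the other drug-metabolizing P450s and their partners, 0 of the 14 reported here were called in either comparison, with medians of -0.15 and -0.07. CYP2B6, an enzyme that oxidizes drugs mainly in the liver, had the smallest p in both, at -1.09 in OSK-A549-Colony (SE 0.24; limma, adjusted p = 0.0513) and -1.80 in OSK-A549-SN (SE 0.30; limma, adjusted p = 0.0529). Over the 5 lists 5 of 69 genes were called in OSK-A549-Colony. Leaving out any array of OSK-A549-Colony or parental replicate 2 brought this to 0, and leaving out parental replicate 1 or 3 to 3. The single call of 71 in OSK-A549-SN, QPRT, was lost when any 1 of the 6 arrays was left out, with limma adjusted p of 0.0593 to 0.168.

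**Figure D4:**
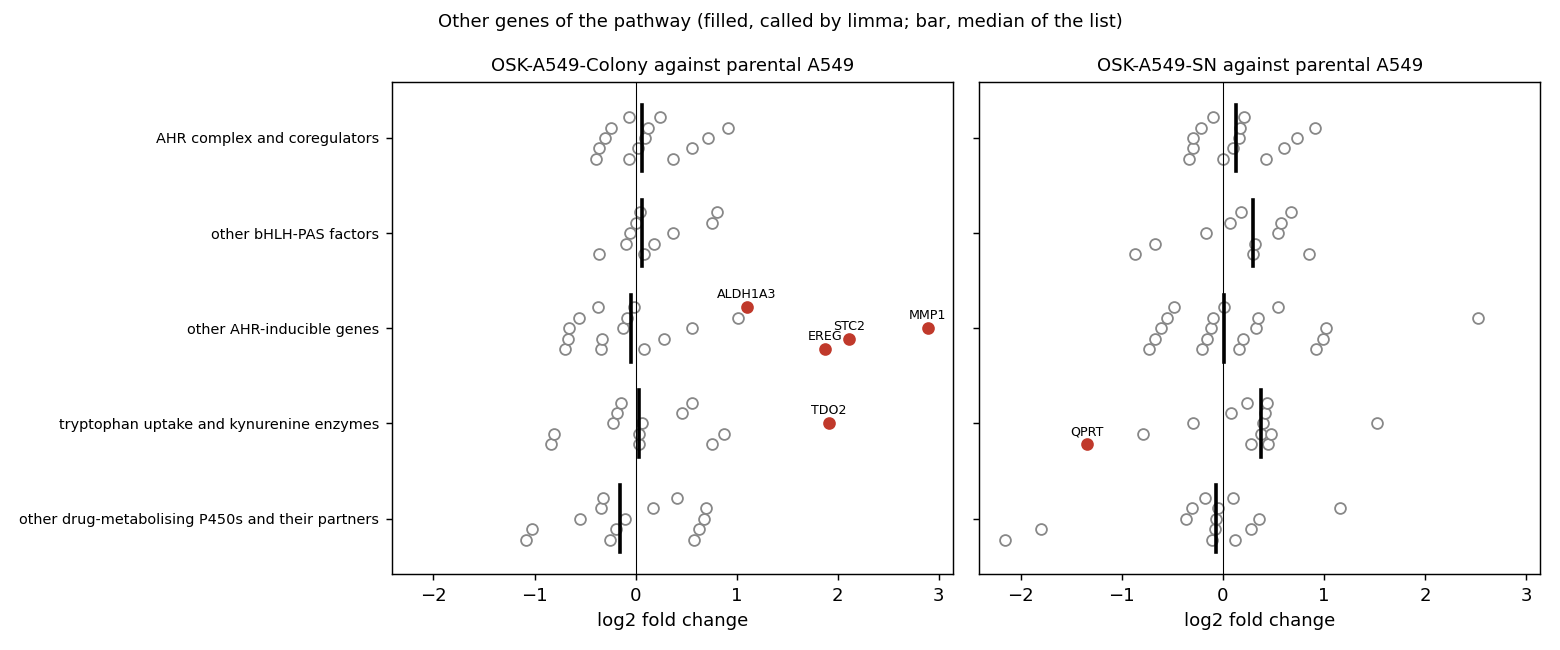
Log2 fold change against parental A549 of each tested gene of the 5 lists, in OSK-A549-Colony (left) and OSK-A549-SN (right), 3 arrays per group. Filled points are calls by limma, bars are list medians, and the vertical offset within a list only separates the points. The 5 calls on the left are all higher, and the 1 call on the right, QPRT, is lower.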

How the data were processed

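The authors hybridized 9 Agilent 60K v2 arrays (3 groups of 3) and deposited each spot's intensity from Feature Extraction 11.5.1.1, already background-subtracted, with detection flags. They also deposited log2 values of the same arrays, which differed from those computed here by 1 constant per array. Control and outlier spots were left out, spots of a probe were averaged on the log2 scale, and the 75th percentile of each array was subtracted. No spot was saturated. Per-array precision is limited by the 3 arrays per group. Probes were named through RefSeq accessions (30275 of 32065 matched). Each pairwise comparison was fitted with limma 3.58.1 (lmFit, eBayes; R 4.3.3), tested on simulated data, on its 6 arrays, over probes that at least 1 of these detected. A call needed a change over 2-fold and an adjusted p (Benjamini-Hochberg) under 0.05. Where several probes stood for a listed gene, the 1 with the highest mean was used. UGT1A1, GSTA1, CYP2S1, CYP2A6 and POR had no named probe, undetected listed genes were not tested, and 1 more listed gene is not reported here. From each list up to 3 called genes with the largest change were named or, with none called, the gene with the smallest p, and others are marked as named after their values were seen. The most similar genes were the 3 at the smallest distance among probes detected on as many arrays. The genes, lists and tests were chosen with earlier results of these data known. Alternatives were normexp background correction (on median signals, offset 50), quantile normalization, other filters, the slide or the replicate number as a block, a fit of all 9 arrays, the deposited log2 values, and leaving out each array. The counts over the 5 lists under these were added after seeing the data.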

Additional observations from a re-analysis of the deposited data

Results flagged for a closer look

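On each of the 2 AHR probes all 3 OSK-A549-Colony arrays lay above the parental mean and all 3 OSK-A549-SN arrays below it, OSK-A549-SN replicate 1 only just on the first probe (a difference of -0.0030). The effects against parental A549 were 0.31 and -0.20 on A_23_P215566, which differ by 0.51, and 0.15 and -0.35 on A_33_P3316800, which differ by 0.50 (log2). The difference is left as a description with no p, because its contrast is the one that picked the genes, and it was not tested otherwise. The parental arrays spread over both groups.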

How the results depend on the processing

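The number of calls depended on the processing more than the fold changes did. For OSK-A549-Colony against parental A549, 1143 probes were called, 4 of them from the genes studied, and 5 genes of the lists. With normexp these were 333 probes and 3 list genes, and with no detection filter 583 probes and 3 list genes. Leaving out each array in turn gave 0 to 1362 probes, 0 to 4 probes of the genes studied and 0 to 3 list genes. The lowest counts were those without OSK-A549-Colony replicate 2 (0 probes), parental replicate 2 (1 probe) and OSK-A549-Colony replicate 3 (85 probes). For OSK-A549-SN against parental A549, 498 probes and 1 list gene were called. With normexp these were 232 and 2, with no filter 215 and 0, with the slide as a block 187 and 2, with probes detected on all arrays of 1 group 980 and 5, and with all 9 arrays in 1 fit 1085 and 4. Quantile normalization gave 2 list genes, and leaving out each array 0 to 190 probes and 0 to 2 list genes. With OSK-A549-SN as the baseline for OSK-A549-Colony, 0 probes were called, but 32 with normexp, 139 with detection on all arrays of 1 group and 9 with all 9 arrays in 1 fit. Of these, 3 were probes of the genes studied in each of the first 2 settings, which is no test of them, since this contrast picked them. The lists gave 0 genes in all 3. With the replicate number as a block, 0 probes were called in all 3 comparisons, and the member calls had an adjusted p of 0.118 in limma. The numbers were not taken to pair the arrays: the deviations of same-numbered OSK-A549-Colony and parental arrays from their group means correlated at -0.01, -0.05 and -0.02, those of OSK-A549-SN and parental arrays at 0.15, -0.20 and -0.01, and those of OSK-A549-Colony and OSK-A549-SN arrays at 0.24, 0.07 and 0.14. The different-numbered pairs of the last 2 groups gave -0.18 to 0.03, so that each of those arrays correlated best with its own number, a hint from the data. The passage labels of same-numbered arrays of these 2 groups also match. The slide as a block could not be fitted for OSK-A549-Colony against parental A549, whose arrays were all on 1 slide. Of 104 recomputed log2 differences of single probes in OSK-A549-Colony against parental A549, 87 kept their direction and side of the threshold, 16 lost the call and 1 changed sign, AHR (A_33_P3316800) at -0.019 without parental replicate 3 (range -0.019 to 0.25 over the arrays left out). Of 110 in OSK-A549-SN against parental A549, none of which was called, 9 changed sign: CYP1A1 to -0.11 without parental replicate 2 (range -0.11 to 0.61 over the arrays left out), CYP1A2 to -0.30 (-0.30 to 0.36) with the slide as a block or without OSK-A549-SN replicate 3, the CYP1B1 probes to 0.022 (-0.54 to 0.022) and 0.030 (-0.59 to 0.030) without OSK-A549-SN replicate 2, and CYP1B1 (A_33_P3290343) to 0.0019 and TIPARP to 0.10 (-0.32 to 0.10) with the slide as a block or without replicate 3. Of 112 in OSK-A549-Colony against OSK-A549-SN, 1 moved by more than the spread between replicates, CYP1A1 from a fitted 2.41 to 0.72 with normexp, and CYP1A2, which overlapped between the groups, turned from -0.39 to 0.0075 without OSK-A549-SN replicate 3. The causes were not tested. CYP1A1 was well above background on 0 parental arrays and 1 OSK-A549-SN array, so that its fitted differences are given here to show how they move and not as sizes of a change.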
